A study of Mus musculus with 72 samples.

Results

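The genes described here are 37 genes of the mouse chemokine system, chosen as a given list of symbols and found by their Ensembl identifiers among the 55416 genes of the count table. They are 15 ligands of the CC class, 10 ligands of the CXC and CX3C classes, and 12 receptors, among which Ackr1 and Ackr3 are atypical receptors that bind chemokines without the usual signalling. All 37 were found. RNA was sequenced from the pituitary, the epididymal white adipose tissue (eWAT) and the liver of 24 male mice of the sighted FVB strain FVB.129P2-Pde6b+ Tyrc-ch/AntJ, with 6 mice in each of 4 groups. The mothers of FED-CTRL mice had free access to food, and these mice ate a diet with 10% fat, while FED-HFD mice had such mothers and ate a high fat diet (HFD) with 45% fat. CR20-CTRL and CR20-HFD mice ate these same diets but were born to dams whose food was cut by 20% from embryonic day 15 until weaning on postnatal day 21. All offspring started their diet at 8 weeks of age, and those sequenced ate it for 10 weeks. The litter of a mouse is not given in the labels, so mice of a group may share a dam, and p-values measure the spread between these mice.

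Chemokines are small secreted proteins that guide leukocytes along a concentration gradient, and they act through receptors that couple to inhibitory G proteins. CC ligands such as Ccl2 mainly attract monocytes and macrophages, CXC ligands attract neutrophils or lymphocytes depending on their structure, and several ligands share a receptor. In white adipose tissue, chemokines made by adipocytes, stromal cells and macrophages are known for their part in the recruitment of macrophages in obesity.

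Total counts per library ranged from 11589675 to 22364963 in eWAT, from 9842813 to 19928212 in liver and from 18299494 to 27601208 in the pituitary. A count of 3, taken as the limit of detection for counting error, stood at 0.109 to 0.305 CPM, the counts of a gene in every 1e+06 counts of its library. Of the 37 genes, 34 passed edgeR's filter on low counts in eWAT, 23 in liver and 24 in the pituitary. The genes that did not pass in eWAT were Ccl17, Ccr3 and Cxcl5. Each tissue held its own markers. The summed CPM of 5 adipocyte genes was 9405.5 to 32078.8 in eWAT, that of 5 hepatocyte genes was 69094.7 to 115015.4 in liver, and that of the pituitary hormone genes was 232493.3 to 409877.3 in the pituitary. A gene was called when the adjusted p-value of edgeR's quasi-likelihood test was at most 0.055 and the log2 fold change (log2FC) was at least 1 in size.

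Most of the genes lie in clusters of related copies. A span of 138.9 kb on chromosome 11 (GRCm39, 83416602 to 83555509) holds Ccl5, Ccl9, Ccl6, Ccl3 and Ccl4, and a span of 81.2 kb on the same chromosome (81926397 to 82007625) holds Ccl2, Ccl7, Ccl11, Ccl12 and Ccl8. Cxcl5, Cxcl1 and Cxcl2 lie together on chromosome 5 (90907186 to 91053797), as do Cxcl9 and Cxcl10 (92469206 to 92496748). A span of 278.1 kb on chromosome 9 (123635534 to 123913594) holds the receptors Cxcr6, Xcr1, Ccr1, Ccr3 and Ccr2. The promoters of the first cluster and of Ccr1, the receptor of Ccl6 and Ccl9, are shown because 4 of these 5 ligands and the receptor were called in eWAT, as described below, while Ccl5 was not. The promoters of Cxcl1 and Cxcl2 are shown as a comparison, since both are ligands of the neutrophil receptor Cxcr2 and carry the same motif. The sequences are the 120 bases before the annotated transcription start in GRCm39, read on the strand of the gene, and capitals mark matches to the NF-kB consensus on either strand.
Ccl9, minus strand, chr11:83469468-83469587: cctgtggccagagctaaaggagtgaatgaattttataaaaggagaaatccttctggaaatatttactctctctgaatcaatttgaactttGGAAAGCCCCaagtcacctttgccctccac
Ccl6, minus strand, chr11:83483914-83484033: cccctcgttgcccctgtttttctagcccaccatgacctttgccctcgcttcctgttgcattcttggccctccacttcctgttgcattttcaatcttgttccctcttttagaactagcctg
Ccl3, minus strand, chr11:83540192-83540311: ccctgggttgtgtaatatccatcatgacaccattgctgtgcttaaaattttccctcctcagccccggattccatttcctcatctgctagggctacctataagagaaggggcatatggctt
Ccl4, plus strand, chr11:83553263-83553382: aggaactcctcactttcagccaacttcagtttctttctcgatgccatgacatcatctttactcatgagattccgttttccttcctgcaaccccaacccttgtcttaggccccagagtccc
Ccl5, minus strand, chr11:83421346-83421465: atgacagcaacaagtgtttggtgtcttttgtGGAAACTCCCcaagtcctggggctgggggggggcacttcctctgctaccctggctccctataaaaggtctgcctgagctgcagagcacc
Ccr1, minus strand, chr9:123768735-123768854: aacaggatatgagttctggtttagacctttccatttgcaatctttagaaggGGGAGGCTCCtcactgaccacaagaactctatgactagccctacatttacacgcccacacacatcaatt
Cxcl1, plus strand, chr5:91038974-91039093: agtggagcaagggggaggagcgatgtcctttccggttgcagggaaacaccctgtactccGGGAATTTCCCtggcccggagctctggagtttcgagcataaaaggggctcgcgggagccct
Cxcl2, plus strand, chr5:91051610-91051729: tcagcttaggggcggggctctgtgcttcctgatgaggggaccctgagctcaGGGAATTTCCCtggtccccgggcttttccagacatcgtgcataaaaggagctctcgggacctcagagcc
Over 250 bases before the start, 9 of the 37 promoters held an NF-kB match, against 7.62% of the 21770 promoters of protein-coding genes searched the same way. These were Ccl5, Ccl9, Cxcl1, Cxcl2, Cxcl5, Cxcl10, Ccr1, Ccr3 and Cxcr5. The TATAAA box was found in 9 of the 37 and in 11.9% of all promoters, TTCNNNGAA in 6 and in 7.70%, and TGANTCA in 5 and in 6.17%. Each motif was searched on both strands, and a promoter with several matches was counted once. Of the called ligands of the chromosome 11 cluster, Ccl9 held an NF-kB match and Ccl6, Ccl3 and Ccl4 did not.

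The tissues differed in which chemokines they expressed, as the plot of levels by tissue shows. Levels of different genes were compared as RPKM, the CPM divided by the kilobases of annotated exon. In eWAT the 3 genes with the highest median RPKM over 24 mice were Ccl6 at 51.3 (34.7 to 402), Ccl11 at 38.9 (14.4 to 50.1) and Ccl9 at 21.5 (11.8 to 236). Ccl11 attracts eosinophils through Ccr3. In liver they were Cxcl12 at 79.7 (56.4 to 100.1), Ccl9 at 19.15 (14.0 to 70.6) and Cxcl9 at 13.7 (3.32 to 74.7), and in the pituitary Cx3cl1 at 41.8 (35.03 to 53.4), Cxcl14 at 17.4 (14.8 to 20.5) and Cxcl12 at 4.23 (3.51 to 5.03). The ranges of Ccl9 and Ccl8 in eWAT overlapped widely (Ccl8, median RPKM 21.4, 7.72 to 59.3), so the order of these 2 is within the spread between mice. Ccl25 has a long annotated exon length and shares exon sequence with Elavl1 on the other strand, so its RPKM is uncertain.

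**Figure D1:**
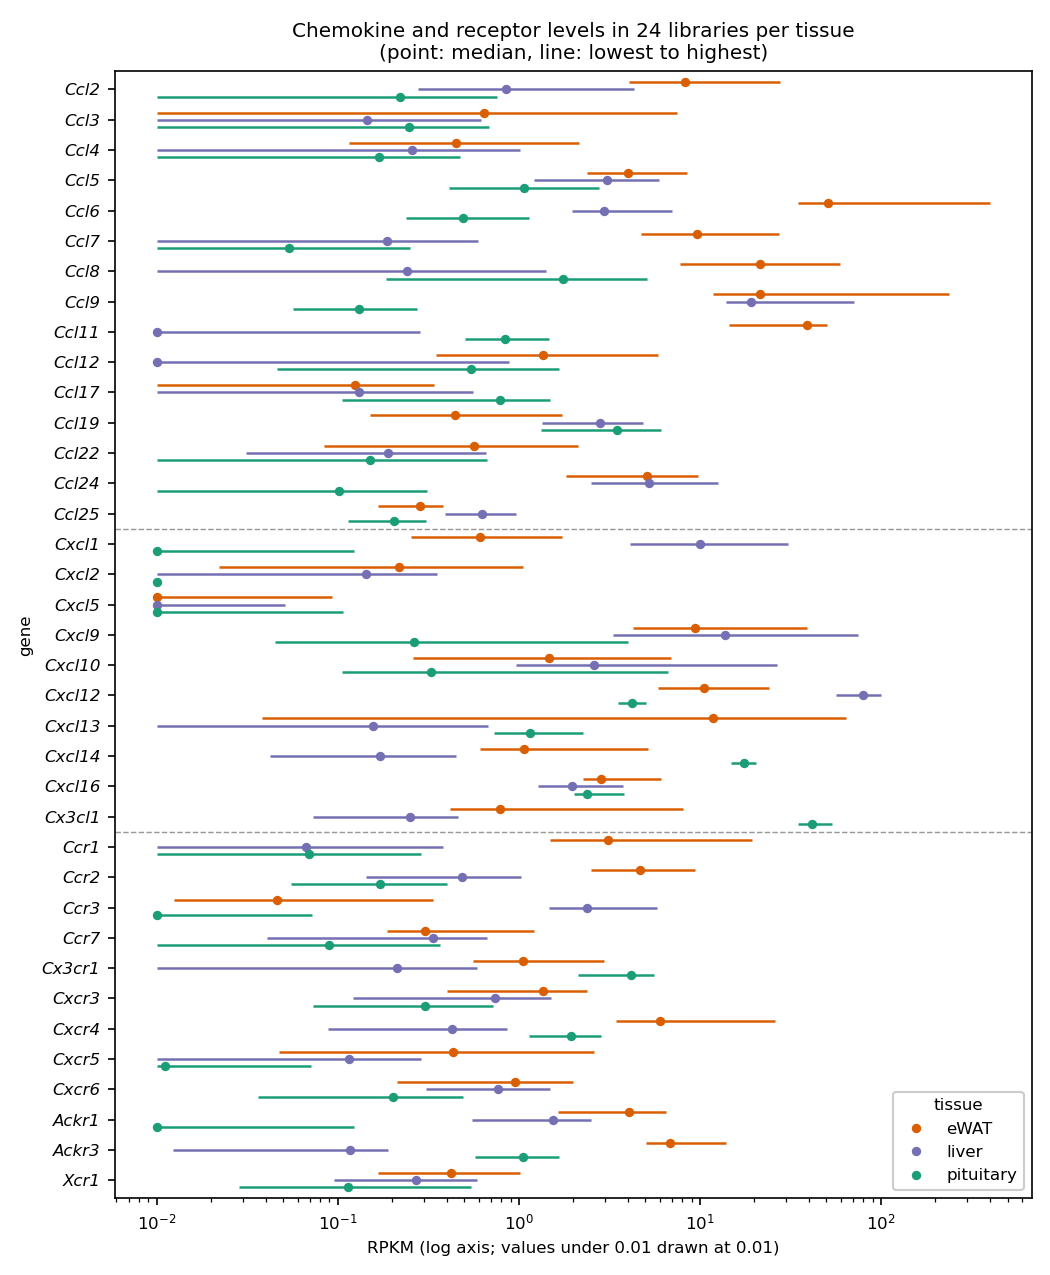
Level of each of the 37 genes in eWAT, liver and pituitary, as RPKM on a log axis with 24 libraries per tissue. Points are medians and lines run from the lowest to the highest library, and dashed lines separate CC ligands, CXC and CX3C ligands, and receptors. Cx3cl1 and Cxcl14 stand highest in the pituitary, Cxcl12 and Ccl9 in liver, and Ccl6 and Ccl11 in eWAT.

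The levels of a gene in the 3 tissues were compared in the 6 FED-CTRL mice, with the mouse as a block, and 32 of the 37 genes were tested. Between eWAT and liver, 17 genes were higher in eWAT and 6 were higher in liver, where 29.1% and 19.5% of all genes tested were called in these directions. Between eWAT and pituitary, 26 were higher in eWAT and 4 in the pituitary (26.8% and 27.5% of all genes), and between pituitary and liver 9 were higher in the pituitary and 19 in liver (34% and 27.6% of all genes). By median RPKM in these mice, 24 of the 37 genes were highest in eWAT, 7 in liver and 6 in the pituitary. Ccl11 was at a median of 41.8 RPKM in eWAT, 0.682 in pituitary and 0 in liver, with a log2FC of 5.66 for eWAT over pituitary (standard error (SE) 0.17, edgeR adjusted p = 4.28e-16). Cx3cl1, a membrane-bound ligand known from neurons and endothelium, had a log2FC of 7.17 for pituitary over liver (SE 0.21, adjusted p = 1.06e-16) and of -5.80 for eWAT over pituitary (SE 0.18, adjusted p = 6.35e-16). Its receptor Cx3cr1, a marker of microglia and other resident macrophages, was also highest in the pituitary, with a median of 4.14 RPKM against 1.14 in eWAT and 0.261 in liver. Cxcl1, a neutrophil attractant, was at 7.94 RPKM in liver, 0.509 in eWAT and 0.0112 in the pituitary. Ccr3 was at 2.42 RPKM in liver and at 0.0398 and 0.0128 in eWAT and pituitary, whereas its ligand Ccl24 was at 7.06 in eWAT and 5.10 in liver. Cxcl16, a scavenger receptor and ligand made by macrophages, was not called in any of the 3 comparisons, with medians of 2.62, 2.24 and 2.34 RPKM in eWAT, liver and pituitary. Its exons overlap Med11 and Zmynd15 on the other strand, so these levels may hold reads of those genes.

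The first diet comparison asked how the HFD changed the tissues of mice from fed dams. In eWAT of FED-HFD vs FED-CTRL mice, 9 of the 34 genes tested rose and 0 fell, which is 26.5% of them, where 4.18% of all genes tested rose and 0.514% fell. With a filter that left the FED-HFD libraries out, chosen after seeing the data, Ccl4 was not tested and 8 of 33 rose (3.95% of all genes). Those that rose were the CC ligands Ccl2, Ccl3, Ccl4, Ccl6, Ccl9 and Ccl22, the CXC ligand Cxcl14 and the receptors Ccr1 and Cxcr4. The median log2FC of the 34 genes was 0.62, against -0.00 over all genes, and 32 of the 34 values were above 0. For 5 genes the mice did not overlap, with every FED-HFD mouse above every FED-CTRL mouse, which held for 4.06% of all genes.

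Ccl9 and Ccl6, ligands of Ccr1 that mouse macrophages make in quantity, had the smallest p-values. Ccl9 was at 67.3 to 112 CPM (median 73.6) in FED-CTRL and at 147 to 893 (median 215) in FED-HFD, a log2FC of 1.98 (SE 0.36, edgeR adjusted p = 0.00297). Ccl6 was at 89.4 to 142 CPM (median 112) in FED-CTRL and at 174 to 886 (median 275) in FED-HFD, a log2FC of 1.62 (SE 0.30, adjusted p = 0.00306). For both genes the groups did not overlap, and the exact permutation test gave p = 0.00216, the smallest that 924 divisions of 12 mice allow. Mouse 23 of the FED-HFD group stood far above its group for both.

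Ccl2, the main attractant of monocytes through Ccr2, was at 5.58 to 12.5 CPM (median 11.2) in FED-CTRL and at 13.0 to 38.2 (median 22.7) in FED-HFD. Its log2FC was 1.23 (SE 0.28, edgeR adjusted p = 0.00817), and the lowest FED-HFD mouse stood just above the highest FED-CTRL mouse. Other ligands from the same cluster had smaller differences. Ccl7 had a log2FC of 0.98 (adjusted p = 0.0353), under the fold limit, Ccl8 one of 0.79 (adjusted p = 0.176) and Ccl12 one of 0.13 (adjusted p = 0.888). Ccl11 of this cluster had a log2FC of 0.03 (adjusted p = 0.942), with 49.3 to 60.2 CPM in FED-CTRL and 46.4 to 67.6 in FED-HFD.

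Ccl3 and Ccl4, the macrophage inflammatory proteins, were low in eWAT. Ccl3 was at 0.354 to 0.796 CPM (median 0.537) in FED-CTRL and at 0.751 to 7.07 (median 1.64) in FED-HFD, a log2FC of 2.12 (SE 0.61, edgeR adjusted p = 0.0277) with a slight overlap of the groups. Ccl4 was at 0.244 to 0.393 CPM (median 0.333) and at 0.506 to 1.79 (median 0.724), a log2FC of 1.41 (SE 0.42, adjusted p = 0.0345) without overlap. Ccl4 passed the filter on low counts only through the FED-HFD libraries, where it was high, so its values are given as a description. Ccl22, a ligand of Ccr4 made by macrophages and dendritic cells, was at 0.725 to 1.99 CPM (median 1.38) and at 2.02 to 6.33 (median 2.71), a log2FC of 1.26 (SE 0.38, adjusted p = 0.0339), also without overlap. Ccl5, the other ligand of the chromosome 11 cluster, had a log2FC of 0.13 (adjusted p = 0.787).

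Cxcl14, a chemokine of epithelia and adipose tissue, was at 2.52 to 6.33 CPM (median 3.88) in FED-CTRL and at 4.10 to 21.6 (median 7.79) in FED-HFD, a log2FC of 1.19 (SE 0.37, edgeR adjusted p = 0.0422) with overlapping groups. The neutrophil attractants Cxcl2 and Cxcl1 did not pass in this fit. Cxcl2 was called higher by DESeq2 and by limma voom with quality weights, and not by limma voom without them. Cxcl2 had a log2FC of 1.77 (SE 0.59, adjusted p = 0.057) at 0.0561 to 0.647 CPM in FED-CTRL and 0.253 to 2.66 in FED-HFD, and Cxcl1 had one of 0.76 (adjusted p = 0.161). Cxcl16 was under the fold limit with a log2FC of 0.64 (adjusted p = 0.0197). Ccl24, an eosinophil attractant, was the ligand with the lowest log2FC, at -0.88 (SE 0.30, adjusted p = 0.0641), with 7.79 to 14.3 CPM in FED-CTRL and 3.12 to 9.87 in FED-HFD. It was called lower by limma voom with quality weights (-1.01, adjusted p = 0.00683) and by edgeR without FED-HFD mouse 40 (-1.07, adjusted p = 0.0253).

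Of the receptors, Ccr1 was at 6.95 to 16.4 CPM (median 9.88) in FED-CTRL and at 13.7 to 66.5 (median 18.7) in FED-HFD, a log2FC of 1.28 (SE 0.33, edgeR adjusted p = 0.0156). Cxcr4, the receptor of Cxcl12 on most leukocytes, was at 8.98 to 15.3 CPM (median 12.2) and at 10.7 to 57.6 (median 21.2), a log2FC of 1.06 (SE 0.30, adjusted p = 0.0261). The groups overlapped for both. Ccr2, the receptor of Ccl2 on monocytes, was under the fold limit with a log2FC of 0.65 (SE 0.15, adjusted p = 0.00827), at 34.7 to 49.7 CPM (median 41.8) in FED-CTRL and 45.95 to 77.2 (median 66.0) in FED-HFD. Ccr3 was left out by the filter with 1 to 29 counts per library, and stood at 0.0505 to 0.183 CPM in FED-CTRL and at 0.304 to 1.33 in FED-HFD. Without the filter its log2FC was 2.17 (SE 0.55, adjusted p = 0.0234), from 1 to 4 counts per library in FED-CTRL. That fit did not call Ccl3, Ccl4, Ccl22 or Cxcl14. Cxcl12, the ligand of Cxcr4 and Ackr3 that holds cells in tissue niches, had a log2FC of 0.20 (adjusted p = 0.682) at 72.4 to 127 CPM in FED-CTRL and 100.3 to 130.0 in FED-HFD, and Ackr3 had one of 0.11 (adjusted p = 0.787).

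**Figure D2:**
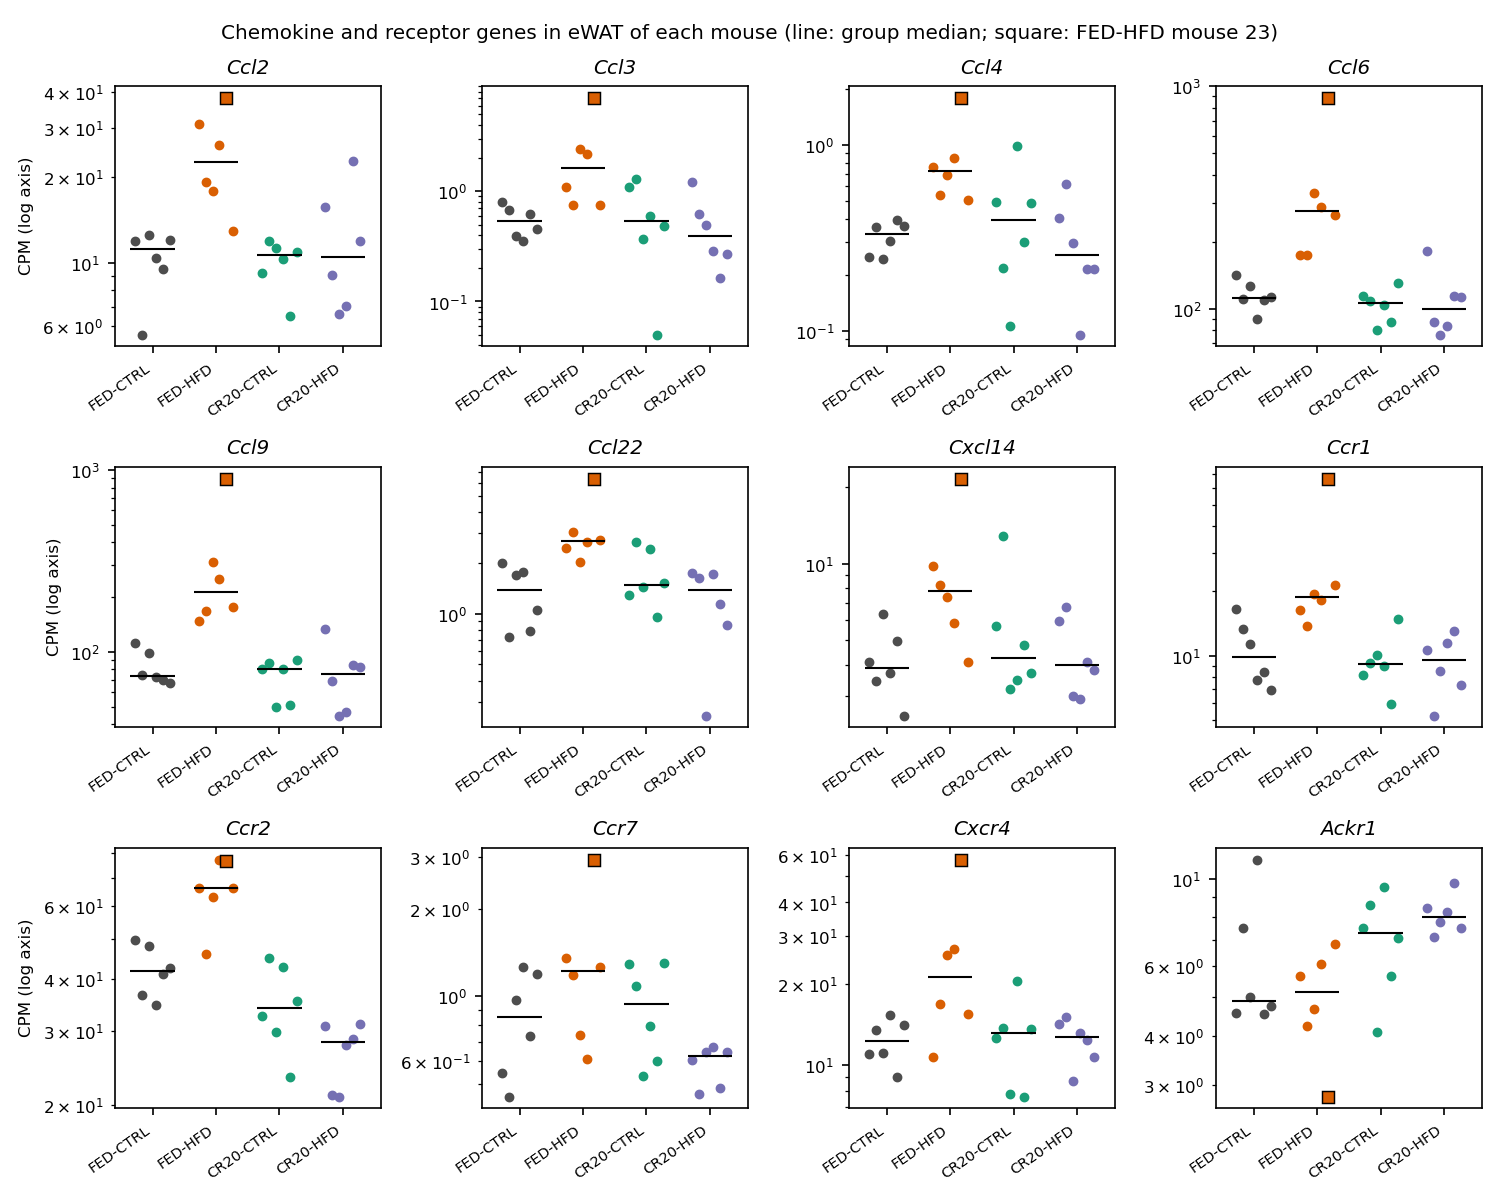
CPM of 12 genes in the eWAT of each mouse, on log axes with 6 mice per group. Points are mice, lines are group medians, the square is FED-HFD mouse 23, and a value of 0 (Ccl3 in 1 CR20-CTRL mouse) is drawn at 0.05. Mouse 23 is the highest FED-HFD mouse in 10 of the 12 panels and the lowest for Ackr1, and FED-HFD medians stand above the other 3 groups in all panels but Ackr1.

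The comparison of CR20-HFD with FED-HFD asked whether maternal undernutrition changed the state on the HFD, and it shares the FED-HFD mice with the comparison above, so the values of both move with those mice. In eWAT, 10 of the 34 genes were lower in CR20-HFD and 0 were higher, which is 29.4% of them, where 4.78% of all genes were lower and 0.714% higher. With the filter that left out the FED-HFD libraries, 9 of 33 were lower (4.57% of all genes). They were Ccl3, Ccl4, Ccl6, Ccl9, Ccl22, Cxcl14, Ccr1, Ccr2, Ccr7 and Cxcr4. The median log2FC was -0.61, against 0.02 over all genes, with 28 of 34 values below 0. For 4 genes all CR20-HFD mice were below all FED-HFD mice (4.17% of all genes), and for 1 all were above (2.5%).

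Ccr2 had the smallest p-value of the 34. It was at 20.9 to 31.2 CPM (median 28.2) in CR20-HFD and at 45.95 to 77.2 (median 66.0) in FED-HFD, without overlap, and its log2FC was -1.30 (SE 0.15, edgeR adjusted p = 0.000214, exact permutation p = 0.00216). The CR20-HFD mice also stood below the range of the FED-CTRL mice for this gene, 34.7 to 49.7 CPM, a pair of groups that the design does not compare. Its ligand Ccl2 was at 6.58 to 22.9 CPM (median 10.5) in CR20-HFD, with a log2FC of -0.99 (SE 0.28, adjusted p = 0.0215), just under the fold limit. CR20-HFD mice 6 and 45 stood within the FED-HFD range for Ccl2.

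Ccl9 was at 44.6 to 133 CPM (median 75.8) in CR20-HFD, below all FED-HFD mice, with a log2FC of -2.08 (SE 0.36, edgeR adjusted p = 0.000897). Ccl6 was at 76.5 to 182 CPM, with a log2FC of -1.69 (SE 0.30, adjusted p = 0.00104) and CR20-HFD mouse 6 within the FED-HFD range. Their receptor Ccr1 was at 5.26 to 13.0 CPM (median 9.57), without overlap, and its log2FC was -1.47 (SE 0.33, adjusted p = 0.00519). Ccl22 was at 0.247 to 1.75 CPM (median 1.38), also without overlap, with a log2FC of -1.40 (SE 0.38, adjusted p = 0.0166). With limma voom and quality weights, Ccr1, Ccr7, Cxcl14 and Cxcr4 were called in neither comparison.

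The low ligands Ccl3 and Ccl4 were at 0.162 to 1.21 CPM (median 0.391) and 0.0955 to 0.619 CPM (median 0.257) in CR20-HFD. Their log2FC values were -2.27 (SE 0.62, edgeR adjusted p = 0.0172) and -1.52 (SE 0.44, adjusted p = 0.0215). Since Ccl4 passed the filter only through the FED-HFD libraries, its values are again given as a description. Cxcl14 was at 2.91 to 6.73 CPM (median 3.96), a log2FC of -1.11 (SE 0.37, adjusted p = 0.0465). Cxcr4 was at 8.71 to 15.0 CPM (median 12.7), a log2FC of -1.05 (SE 0.30, adjusted p = 0.021), and Ccr7, the homing receptor of dendritic and T cells, was at 0.464 to 0.669 CPM (median 0.624) against 0.609 to 2.94 (median 1.22), a log2FC of -1.19 (SE 0.35, adjusted p = 0.0235). Each of these 5 overlapped between the groups.

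Ackr1, the chemokine scavenger of venular endothelium, had values in the other direction, and like Ccr3 and Ccl12 it is described here after its values were seen. It was at 2.80 to 6.83 CPM (median 5.17) in FED-HFD and at 7.12 to 9.78 (median 7.99) in CR20-HFD, without overlap (exact permutation p = 0.00216), with a log2FC of 0.69 (SE 0.24, edgeR adjusted p = 0.052) that is under the fold limit. Endothelial markers were also higher in these CR20-HFD libraries, with values given below, and their part in this value was not tested. Part of its annotated exon sequence is shared with Cadm3 on the same strand. Ccl24 had a log2FC of 0.63 (adjusted p = 0.163), Cx3cr1 one of -0.80 (adjusted p = 0.0684), and Cxcl12, Ackr3 and Cx3cl1 had values of 0.07, 0.19 and -0.18 with adjusted p-values of 0.884, 0.559 and 0.867.

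**Figure D3:**
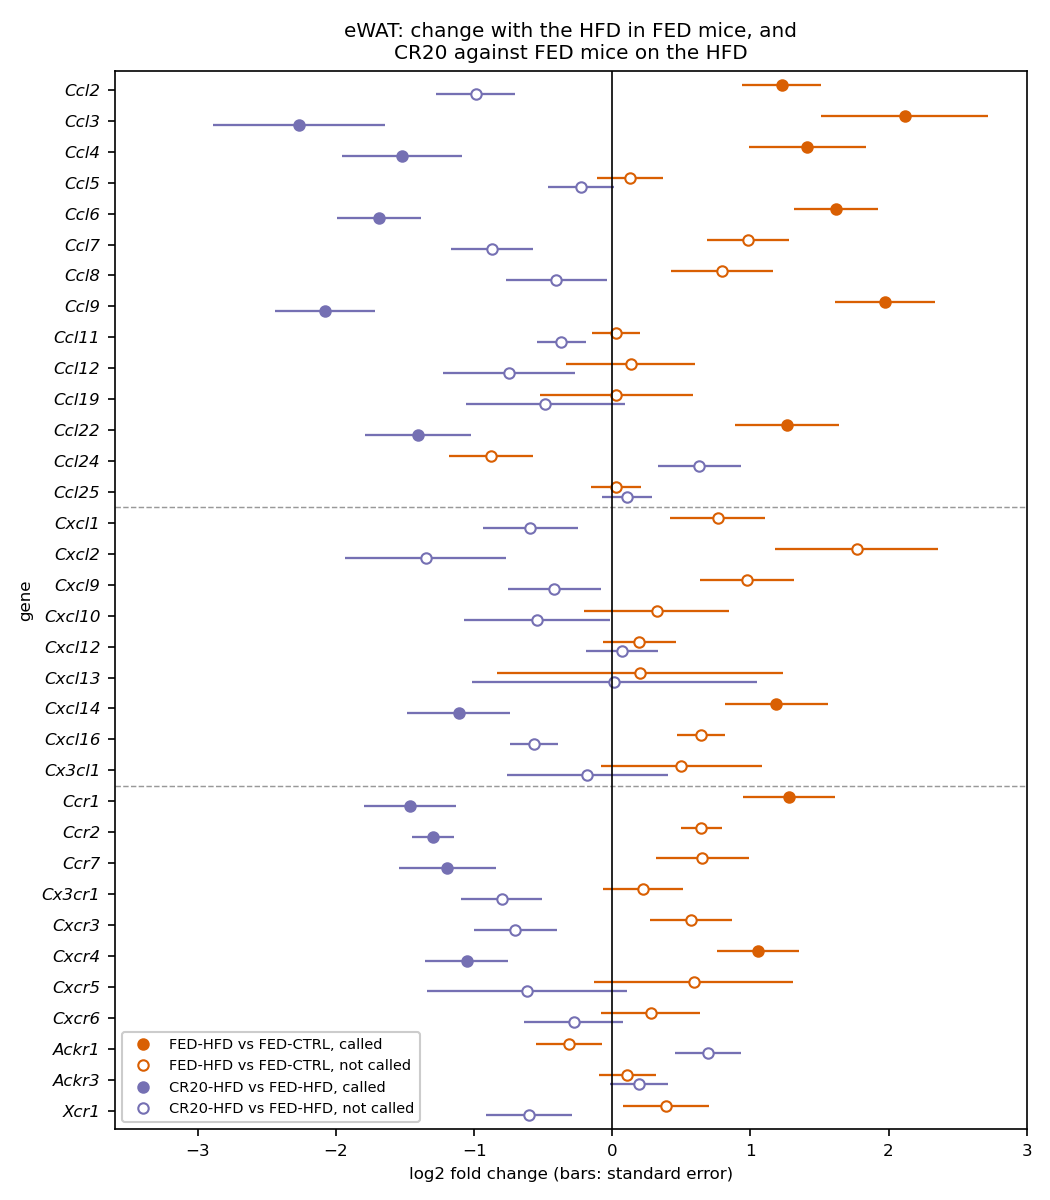
Log2FC of the 34 genes tested in eWAT, with bars for the SE, in FED-HFD vs FED-CTRL (orange) and CR20-HFD vs FED-HFD (purple), which share the FED-HFD mice. Filled points are called genes and dashed lines separate CC ligands, CXC and CX3C ligands, and receptors. Called points lie right of 0 in the first comparison (9 genes) and left of 0 in the second (10 genes).

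By edgeR no gene of the 34 was called in eWAT between the CTRL groups (CR20-CTRL vs FED-CTRL) or between the CR20 groups (CR20-HFD vs CR20-CTRL), and 0% of all genes were called in either. At an unadjusted p-value under 0.05 there were 2 of the 34 in each (7.39% and 6.03% of all genes), and limma voom and DESeq2 called 0 of them as well. In the first these were Cx3cl1, with a log2FC of 1.46 (adjusted p = 0.524), and Cxcl16 with 0.37 (adjusted p = 0.659). Cx3cl1 was at 43.5 CPM in CR20-CTRL mouse 5 and at 2.01 to 7.39 in the other mice of that group, and its log2FC without mouse 5 was 0.07. That library also had the highest Cx3cr1 and Cxcl12 of all eWAT libraries, at 18.6 and 272 CPM, summed adipocyte markers of 9552.6 CPM, and epididymis markers at 51.9 CPM. In the second they were Cx3cr1, with a log2FC of -1.08 (SE 0.30, adjusted p = 0.788), and Ccr2 with -0.38 (adjusted p = 0.795).

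The interaction, the log2FC of the HFD in CR20 mice minus that in FED mice, tested whether the response to the diet differed between them. In eWAT it was negative for 29 of the 34 genes, and 3 were called (8.82%, against 2.23% of all genes in this direction). They were Ccr2 at -1.03 (SE 0.21, edgeR adjusted p = 0.0322), Ccl9 at -1.90 (SE 0.50, adjusted p = 0.0465) and Ccl6 at -1.54 (SE 0.42, adjusted p = 0.0534). Ccl22, Ccl4 and Ccl3 had values of -1.76, -1.98 and -2.47 with adjusted p-values of 0.0829, 0.0893 and 0.14, where that of Ccl4 is a description only. With limma voom, with or without quality weights, 0 genes were called, and Ccr2 alone was called when the range of animal numbers was a covariate. With each mouse left out in turn 0 to 6 genes were called, and 13 of these 24 fits called 0.

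FED-HFD mouse 23 moved these differences. It was the highest mouse of its group for 14 of the 34 genes, and mouse 40 for 12. Without mouse 23, 4 genes were called in FED-HFD vs FED-CTRL (Ccl2, Ccl6, Ccl9 and Cxcl9) and 3 in CR20-HFD vs FED-HFD (Ccl6, Ccl9 and Ccr2). No gene was called in the interaction without this mouse. Without FED-CTRL mouse 41 or mouse 42, 5 genes were called in the first comparison. The log2FC values without FED-HFD mouse 23 were 1.35 for Ccl9, 1.099 for Ccl6 and 1.04 for Ccl2 in the first comparison. In the second they were -1.46 for Ccl9, -1.17 for Ccl6 and -1.24 for Ccr2. Ccr1 then stood at 0.73 (edgeR adjusted p = 0.0767) and -0.91 (adjusted p = 0.0183).

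Macrophage markers moved in the same samples. The summed CPM of 12 macrophage genes was 1648.3 to 2362.9 (median 2033.4) in FED-CTRL, 2335.4 to 10075.6 (median 3589.5) in FED-HFD, 1351.0 to 2714.1 (median 1951.5) in CR20-CTRL and 1423.8 to 2299.5 (median 1827.2) in CR20-HFD. Mouse 23 had the highest sum, 10075.6 CPM, and the lowest adipocyte sum, 9405.5 CPM. Of the 12 genes, 4 rose in FED-HFD vs FED-CTRL (Adgre1, Cd68, Itgam and Lyz2), 5 were lower in CR20-HFD vs FED-HFD (those 4 and Fcgr1), and none was at 0. In such bulk tissue, more cells of a type and more RNA per cell cannot be told apart, and the part of macrophage number in these results was not tested. The 5 endothelial markers summed to 141.8 to 370.6 CPM in FED-HFD and 360.9 to 540.7 in CR20-HFD, with a median log2FC of 0.65, and Emcn (log2FC 0.97, edgeR adjusted p = 0.00308) and Tek (0.65, adjusted p = 0.0479) were under the fold limit. No T cell, B cell, neutrophil, mesothelial, fibroblast or endothelial marker that was tested was called in either comparison, and among 6 dendritic cell markers Flt3 was lower in CR20-HFD vs FED-HFD. The neutrophil gene Ly6g was at 0 in 23 of 24 eWAT libraries. Of 4 hepatocyte genes tested in eWAT, Apoa1 and Ttr rose in FED-HFD vs FED-CTRL and were lower in CR20-HFD vs FED-HFD, while Cyp2e1 was higher in the second. Apoa1 and Ttr had median counts of 5 and 4.5 over the eWAT libraries. The hepatocyte list summed to 3.54 to 982.1 CPM over these libraries, with medians of 160.5 in FED-CTRL, 59.5 in FED-HFD and 173.3 in CR20-HFD. FED-HFD mouse 10 had the highest sum of its group, 779.2 CPM. Epididymis genes summed to at most 0.138 CPM in the FED groups and to 133.1, 51.9 and 37.8 CPM in CR20-CTRL mice 4 and 5 and CR20-HFD mouse 6. The part of these lists in the results was not tested.

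**Figure D4:**
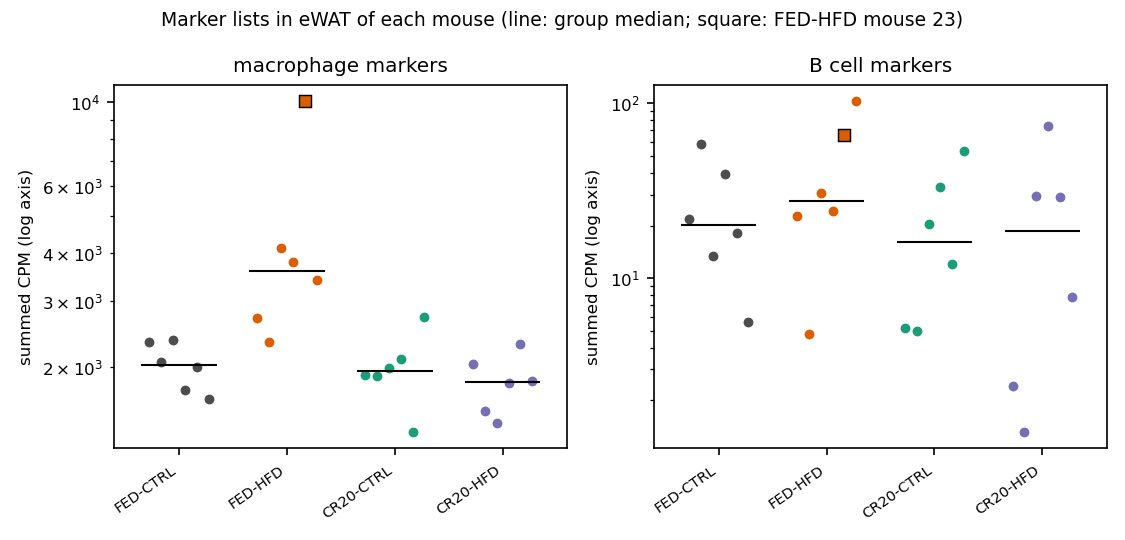
Summed CPM of 12 macrophage markers and of 5 B cell markers in the eWAT of each mouse, on log axes. Points are mice, lines are group medians and the square is FED-HFD mouse 23, which has the highest macrophage sum (10075.6 CPM). B cell sums spread widely within every group, from 1.32 to 74.4 CPM in CR20-HFD.

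The ligand and receptor of B cell follicles, Cxcl13 and Cxcr5, varied widely within groups. Cxcl13 was at 1.83 to 52.8 CPM in FED-CTRL, 0.0536 to 54.6 in FED-HFD, 0.149 to 38.1 in CR20-CTRL and 0.269 to 88.7 in CR20-HFD, and Cxcr5, whose exons overlap Bcl9l on the other strand, at 0.202 to 10.5 CPM over all groups. In each of the 4 groups the mouse with the highest B cell sum (mice 15, 40, 49 and 32) was also the highest for both genes. The log2FC of Cxcl13 was 0.20 (SE 1.03) in FED-HFD vs FED-CTRL and 0.01 (SE 1.03) in CR20-HFD vs FED-HFD, a difference not detectable at this spread.

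Downstream of the receptors, 30 genes of chemokine receptor signalling were all tested in eWAT. This list and the lists in the next paragraphs were chosen with earlier results of these data known. Their shares are thus a description and not a test against all genes. In FED-HFD vs FED-CTRL 12 rose and 0 fell (median log2FC 0.92), where 4.18% of all genes rose, and in CR20-HFD vs FED-HFD 16 were lower and 0 higher (median -1.04), where 4.78% of all genes were lower. Among those with the smallest p-values were Pik3r5, a regulatory subunit of the G protein-activated PI3 kinase, at a log2FC of 2.04 and -2.23 in the 2 comparisons, Dock2, the Rac activator of leukocyte migration, at 1.65 and -2.0, the actin regulator Was at 1.34 and -1.58, and the beta 2 integrin Itgb2 at 2.04 and -2.38. The edgeR adjusted p-values of these 4 were 0.00297 to 0.00371 in the first comparison and 0.000601 to 0.000896 in the second. Genes of this list found in most cell types, such as the G protein subunit genes Gnai2, Gnai3 and Gnb2 and the GTPase Rac1, had log2FC values of 0.06 to 0.23 in the first and were not called in either. In the interaction 8 of the 30 were called, all negative (2.23% of all genes in this direction).

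Among genes that induce chemokine transcription, 25 of 27 were tested, 3 rose in FED-HFD vs FED-CTRL (Irf5, Tnfrsf1b and Tnf), against 4.18% of all genes, and 5 were lower in CR20-HFD vs FED-HFD (those 3, Irf8 and Rel), against 4.78%. Their median log2FC values were 0.33 and -0.26. Irf5, a transcription factor of inflammatory macrophages, had log2FC values of 1.45 (SE 0.26, edgeR adjusted p = 0.00297) and -1.64 (SE 0.26, adjusted p = 0.000611). Irf8 and Myd88 had values of 0.98 and 0.44 in the first comparison, and Tnfrsf1b, a receptor of TNF, had 1.03 and -1.27. Rel was at 0.82 and -1.06. The NF-kB subunit genes Rela, Nfkb1 and Relb were not called in either, with log2FC values of -0.08 to 0.21 in the first.

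Of 24 further genes of the chemokine family, 13 were tested in eWAT. In FED-HFD vs FED-CTRL 3 rose and 0 fell, where 4.18% of all genes rose. In CR20-HFD vs FED-HFD 3 were lower and 1 was higher, where 4.78% and 0.714% of all genes were. Ccrl2 and Ccr9 were among those that rose in the first and were lower in the second. Ccrl2, an atypical receptor, had log2FC values of 1.45 (SE 0.32, edgeR adjusted p = 0.0068) and -1.50 (SE 0.33, adjusted p = 0.00371). Ccr9, the receptor of Ccl25, had values of 1.53 (SE 0.48, adjusted p = 0.0439) and -1.96 (SE 0.51, adjusted p = 0.0118). It was low, at 0.183 to 0.597 CPM in FED-CTRL, 0.810 to 2.02 in FED-HFD and 0.0673 to 0.648 in CR20-HFD. Whether Ccr9 passes the filter on low counts without the FED-HFD libraries, where it was high, was not examined. Its values are therefore given as a description. Ccl27a had -0.65 in the first comparison (adjusted p = 0.0257), under the fold limit, and Xcl1, the ligand of Xcr1, had 0.59 (adjusted p = 0.419). Ccl21a was called higher in CR20-HFD vs FED-HFD, but 4 of 6 FED-HFD and 2 of 6 CR20-HFD libraries were at 0 and 1 CR20-HFD library stood at 74.2 CPM, and it has near-identical copies, so its value is uncertain.

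In liver, none of the 23 genes tested was called by edgeR in any of the 4 comparisons or in the interaction (0.0943% of all genes were called in FED-HFD vs FED-CTRL, 0.377% between the CR20 groups and 0% in the others), nor by limma voom or DESeq2. At an unadjusted p-value under 0.05 there were 3 in FED-HFD vs FED-CTRL (6.66% of all genes), 3 in CR20-HFD vs FED-HFD (3.58%), 1 between the CR20 groups (9.57%), and 0 between the CTRL groups (2.17%) and in the interaction (1.76%). Cxcl10 and Cxcl9, ligands of Cxcr3 that interferon gamma induces, had the smallest p-values. Cxcl10 was at 2.13 to 12.2 CPM (median 5.36) in FED-CTRL, 1.66 to 45.1 (median 7.71) in FED-HFD, 2.05 to 6.42 (median 2.98) in CR20-CTRL and 2.01 to 7.94 (median 3.23) in CR20-HFD, and its log2FC in CR20-HFD vs FED-HFD was -1.74 (SE 0.55, adjusted p = 0.9998). Cxcl9 was at 13.9 to 169 CPM (median 39.4) in FED-HFD and at 7.28 to 34.3 (median 16.99) in CR20-HFD, a log2FC of -1.58 (SE 0.58, adjusted p = 0.9998). Ccl24 was at 3.36 to 6.88 CPM (median 5.16) in FED-CTRL and 4.88 to 13.4 (median 8.77) in FED-HFD, a log2FC of 0.80 (SE 0.30, adjusted p = 0.536). All these groups overlapped. Ccl2 and Ccr2 were low in liver, at 0.232 to 3.71 and 0.702 to 5.14 CPM over all mice, and Cxcl12 stood at 353 to 595.5 CPM with medians of 471 to 499 in the 4 groups. Cxcr4, Ackr3, Cx3cl1 and Cx3cr1 had group medians of 0.438 to 0.942 CPM in liver.

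In the pituitary, none of the 24 genes tested was called by edgeR (0% of all genes) in any comparison, nor by limma voom or DESeq2. In FED-HFD vs FED-CTRL 8 of the 24 had an unadjusted p-value under 0.05, which is 33.3% of them against 9.64% of all genes, and all 8 log2FC values were above 0. These were Cxcl10, Xcr1, Cxcl9, Ccl5, Cxcl16, Ccl12, Ccl17 and Cxcr6. FED-HFD mouse 40 was the highest of its group for 9 of the 24 genes. Cxcl10, Xcr1, Cxcl9, Cxcl16 and Ccl12 were among these, and Ccl5, Ccl17 and Cxcr6 were not. Cxcl10 was at 0.265 to 1.28 CPM (median 0.594) in FED-CTRL and at 0.481 to 16.6 (median 1.38) in FED-HFD, a log2FC of 2.49 (SE 0.60, adjusted p = 0.155). Cxcl9 was at 0.151 to 1.34 CPM (median 0.976) and 0.374 to 13.5 (median 2.64), a log2FC of 2.29 (SE 0.60, adjusted p = 0.184). Xcr1, the receptor of cross-presenting dendritic cells, was at 0.140 to 0.853 CPM (median 0.434) and 0.452 to 2.70 (median 1.09), a log2FC of 1.51 (SE 0.39, adjusted p = 0.184). These 3 overlapped between the groups, and Ccl12 was the gene of the 24 without overlap, where 0.144% of all genes had none in this direction. Ccl12 stood at 0.221 to 0.653 CPM in FED-CTRL and 0.744 to 1.48 in FED-HFD, with a log2FC of 1.17 (SE 0.43, edgeR adjusted p = 0.357, exact permutation p = 0.00216). The summed macrophage markers of the pituitary were at 225 to 267 CPM in FED-CTRL and 242 to 382 in FED-HFD. Dendritic cell markers were at 6.02 to 10.1 and 9.19 to 12.8 CPM, with a median log2FC of 0.52, and fibroblast and progenitor markers at 67.3 to 76.6 and 53.2 to 61.2 CPM without overlap. No marker of these 3 lists was called, and their part in these values was not tested. Adipocyte markers summed to 113.4 CPM in the pituitary of FED-HFD mouse 10, where the median of that group was 5.79. Their part was not tested either.

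The other pituitary comparisons had 6 of 24 genes at an unadjusted p-value under 0.05 in CR20-HFD vs FED-HFD (6.77% of all genes), 2 between the CTRL groups (17.3%), 3 between the CR20 groups (7.28%) and 2 in the interaction (11% of all genes). Cx3cl1, the most abundant of the 37 in this tissue, was at 164 to 199 CPM in FED-CTRL, 180.4 to 235 in FED-HFD, 157 to 205 in CR20-CTRL and 154 to 186 in CR20-HFD. Its log2FC in CR20-HFD vs FED-HFD was -0.18 (SE 0.08, edgeR adjusted p = 0.668). Cx3cr1, Cxcl12, Ackr3 and Cxcr4 had group medians of 20.7 to 22.2, 38.9 to 40.9, 7.75 to 10.5 and 2.88 to 4.44 CPM. Ccl2 and Ccr2 were at 0 to 0.959 and 0.424 to 3.01 CPM over all pituitary libraries, where the limit of detection is 0.109 CPM at the greatest depth.

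Cxcl9 and Cxcl10 were highest in the same mouse in all 3 tissues, a pattern noticed after the values were seen. FED-HFD mouse 40 had 143 CPM of Cxcl9 in eWAT, 169 in liver and 13.5 in the pituitary, where the next mouse had 68.8, 86.7 and 4.26. Its Cxcl10 was at 19.0, 45.1 and 16.6 CPM, and the next mouse was at 11.3, 12.2 and 2.26. Of the 37 genes these were the 2 whose highest library came from 1 mouse in every tissue. Without mouse 40, the pituitary log2FC in FED-HFD vs FED-CTRL was 0.92 (SE 0.40, edgeR adjusted p = 0.439) for Cxcl10 and 1.37 (SE 0.53, adjusted p = 0.381) for Cxcl9. The liver log2FC of CR20-HFD vs FED-HFD was then -0.83 for both genes, with adjusted p-values of 0.9995. Part of the Cxcl10 exon sequence lies opposite Art3, and the strand setting of the counting is not given, so reads of both genes may be mixed.

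**Figure D5:**
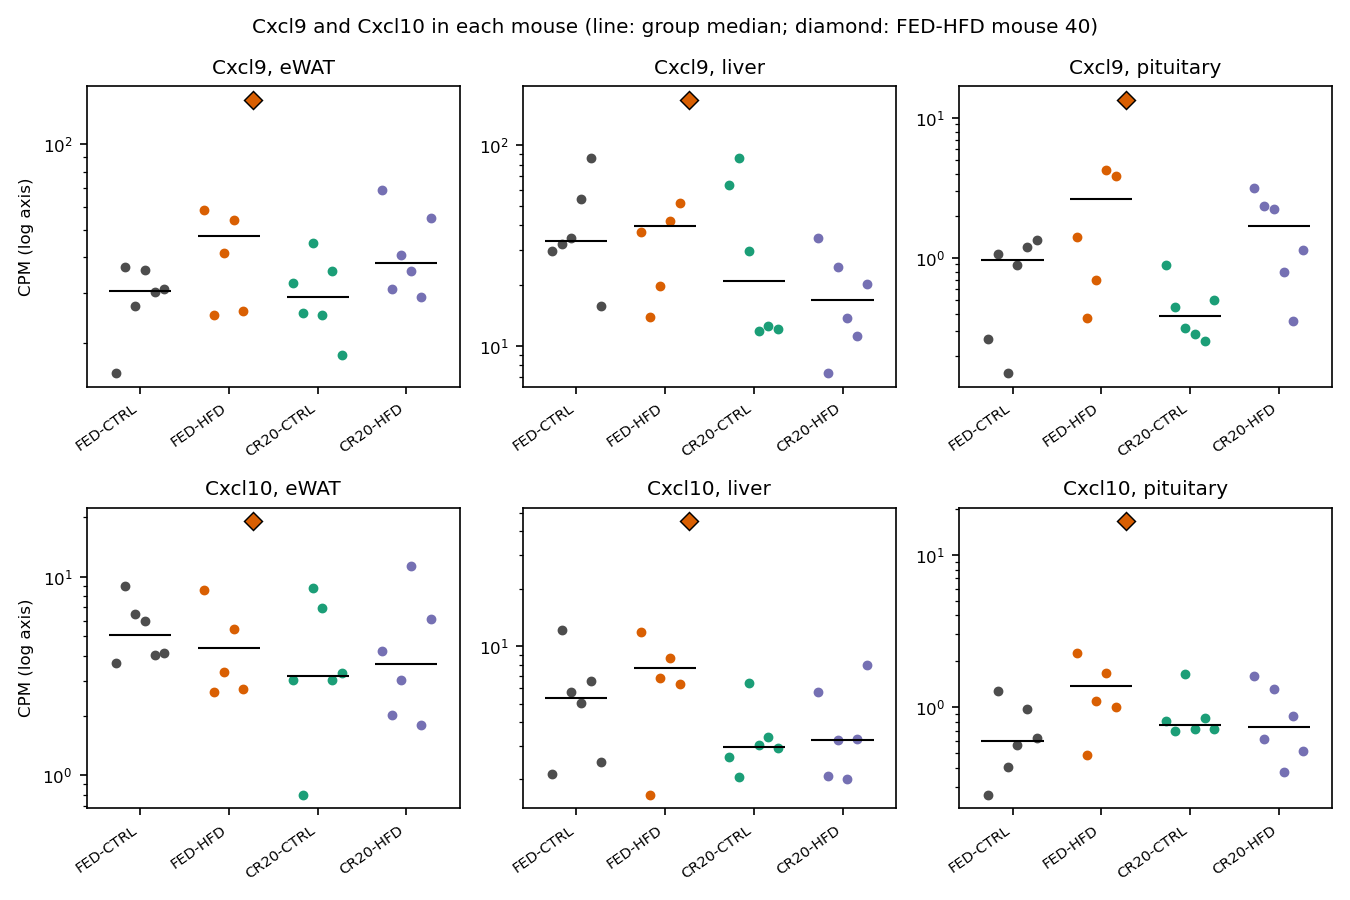
CPM of Cxcl9 (top row) and Cxcl10 (bottom row) in each mouse in eWAT, liver and pituitary, on log axes with 6 mice per group. Points are mice, lines are group medians and the diamond is FED-HFD mouse 40, the highest of 24 mice in all 6 panels.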

How the data were processed

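Counts per gene were deposited for 72 libraries, 1 for each of 3 tissues of 24 mice. Per the labels and the methods, the authors checked reads with FastQC, trimmed them with Trimmomatic, aligned them to GRCm39 with STAR and counted them with Subread. The sources name both a total RNA and an mRNA kit, each stranded. The strand setting of the counting is not given in the sources used here. Of 55416 genes, 54749 matched GENCODE M39. Each tissue was fitted with edgeR 4.0.16 in R 4.3.3 (filterByExpr, TMM, quasi-likelihood test) on 4 groups, with Benjamini-Hochberg adjustment over all genes tested, and checked first on simulated data. SE is the log2FC over the root of the F statistic. Tissues were compared in FED-CTRL mice with the mouse as a block. Over all 24 mice, same-mouse deviations in a pair of tissues had median correlations of 0.0390 to 0.0716. CPM used TMM library sizes per tissue, and RPKM the summed exon length. Exact permutation tests were two-sided on log2 CPM with a prior count of 2. The limit of detection covers counting error only, while the SE also includes the spread between mice.

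The members and lists were chosen with earlier results of these data known. Genes named were those called in eWAT in either HFD comparison, the 3 with the smallest p in liver and in pituitary, Ccl2, Ccr2, Cxcl12, Cxcr4, Ackr3, Cx3cl1 and Cx3cr1 in every tissue, and up to 5 genes of each pathway list. Others were named after their values were seen. Some genes of the pathway lists are not reported here. Alternatives were limma 3.58.1 voom with and without quality weights, DESeq2 1.42.0, its size factors, other filters, the groups compared alone, the range of animal numbers as a covariate, a log2FC limit of 0.58, a prior count of 0.5 and each mouse left out.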

Additional observations from a re-analysis of the deposited data

Results flagged for a closer look

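In 140 groups of 6 mice, for the genes named by rule, gaps between mice were measured on the log2 scale, not in CPM. Of these, 9 held a mouse whose gap to the nearest other mouse was over 0.625 of the group's range. Chance alone gives about 1 in 20 groups. The values below are given as CPM. In eWAT, FED-HFD mouse 23 stood apart for Ccr1 at 66.5 CPM and for Ccl22 at 6.33 CPM. FED-CTRL mouse 15 stood apart for Ccl2 in eWAT at 5.58 CPM, the low end of its group. In the pituitary, CR20-CTRL mouse 33 stood apart for Cxcl10 at 1.64 CPM. CR20-CTRL mouse 48 was low in the pituitary for Ccr2 at 0.424 CPM and for Cx3cr1 at 11.2 CPM. Ackr3 was high in the pituitary of FED-CTRL mouse 42 at 12.9 CPM and low in that of CR20-CTRL mouse 49 at 7.09 CPM. Cx3cl1 was high in the pituitary of FED-HFD mouse 10 at 234.7 CPM. In eWAT, edgeR called the interaction for Ccr2 at -1.03, Ccl9 at -1.90 and Ccl6 at -1.54 on the log2 scale. These calls depend on the method and on single mice. By limma voom none of them was called, and 13 of 24 fits with a mouse left out called 0 genes.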

How the results depend on the processing

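For the genes named by rule in eWAT, no log2FC changed sign under an alternative where the main or the alternative run called the gene. Changes of sign in values that neither run called were not counted. In eWAT, limma voom with quality weights called 6 genes in CR20-HFD vs FED-HFD in place of 10. For the interaction, 3 genes were called by edgeR, 0 by limma voom with or without quality weights, 5 by DESeq2 and 1 with the range of animal numbers as a covariate. Without the filter on low counts, Ccl3, Ccl4, Ccl22 and Cxcl14 were not called in eWAT in FED-HFD vs FED-CTRL, and Ccr3 was. Between the HFD groups of eWAT, that setting did not call Ccl4, Ccr7 and Cxcl14. With it, the pituitary had 2 called genes between the FED groups and 1 between the HFD groups. With each mouse left out in turn, 4 to 12 genes were called in eWAT in FED-HFD vs FED-CTRL, 3 to 11 between the HFD groups and 0 to 6 in the interaction, where 20 of 24 fits moved the count by over 1.5 times and 13 gave 0. The counts of the first were 4 without FED-HFD mouse 23, 5 without FED-CTRL mouse 41 and 5 without FED-CTRL mouse 42, and that of the second was 3 without mouse 23. In the pituitary FED-HFD vs FED-CTRL gave 0 to 2, with 2 without FED-HFD mouse 11. The cause of these changes was not tested. The comparison of tissues, with the mouse as a block, gave 23, 30 and 28 called genes with the block and 23, 30 and 28 without it. Groups within a tissue hold different mice, so no pairing applies to them. With the filter that left out the FED-HFD libraries, an alternative chosen after seeing the data, 8, 9 and 3 genes were called in eWAT in place of 9, 10 and 3. For single called genes, 36 values under other settings were no longer past the thresholds and 155 were, and with a mouse left out 89 were not and 211 were.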
